A study of Mus musculus with 4 samples.

Results

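The unfolded protein response (UPR) was examined in quadriceps muscle through 10 genes, Hspa5, Hsp90b1, Calr, Pdia4, Pdia6, Sdf2l1, Atf4, Ddit3, Xbp1 and Herpud1. These are familiar readouts of stress in the endoplasmic reticulum (ER). They were chosen by symbol, each stood on 1 row of the 51826 rows of the gene table, and all 10 passed the filter on low counts. RNA came from 4 sedentary male mice at 20 weeks of age, of which 2 were WT and 2 were Mef2dα2 Eko, with 1 library per mouse and littermates serving as controls. Mef2dα2 Eko mice are homozygous for a CRISPR-Cas9 deletion of the α2 exon of Mef2d, on a line crossed back to C57BL6/J. The deletion is in the germline, so every tissue carries it, and the α1 exon is used in place of α2. Which of the founder lines gave these mice was not given in the sources used here. The comparison asks whether genes of ER protein folding differ in level between muscles with and without the α2 exon.

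The ER folds proteins that enter the secretory pathway, and its chaperones and oxidoreductases bind the chains as they arrive. When unfolded chains build up, 3 sensors in its membrane signal to the nucleus: IRE1 splices the mRNA of Xbp1, ATF6 is cut by Golgi proteases and becomes a transcription factor, and PERK slows translation while raising that of Atf4, which in turn drives Ddit3 (CHOP). In muscle the same membrane system includes the sarcoplasmic reticulum, the store of calcium for contraction. Chaperones of the cytosol are controlled separately, by the heat shock factor HSF1.

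ATF6 and XBP1 act on promoters through the ER stress response element (ERSE), which is CCAAT followed by any 9 bases and CCACG, and a shorter form, ERSE-II, which is ATTGG followed by any 1 base and CCACG. The forms share the CCACG box. Both were searched on either strand in the 250 bases before each RefSeq gene start (GRCm38.p6). All 10 genes had such a window. An ERSE stood before Hspa5, Calr, Pdia6 and Hsp90b1, which had 2, and an ERSE-II before Herpud1. Of all 32851 windows, 0.113% held an ERSE and 0.0304% an ERSE-II. The sites are printed because 5 of the 10 genes hold one. The genes are familiar readouts of ER stress, and the motifs are those of the ER stress response. Choice and search are thus not independent, and the shares carry no test. Each is given 5′ to 3′ on the strand of its gene, with the match in capitals, and a match beginning CGTGG lies on the reverse strand.
Hspa5, chr2:34772020-34772048, plus strand: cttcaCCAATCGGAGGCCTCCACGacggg
Calr, chr8:84847055-84847113, minus strand: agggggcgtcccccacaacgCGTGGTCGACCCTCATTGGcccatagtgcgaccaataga
Hsp90b1, chr10:86705618-86705676, minus strand: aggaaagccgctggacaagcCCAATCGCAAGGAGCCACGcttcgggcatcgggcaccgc
Hsp90b1, chr10:86705513-86705571, minus strand: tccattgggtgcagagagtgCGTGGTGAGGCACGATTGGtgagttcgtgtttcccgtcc
Pdia6, chr12:17266471-17266529, plus strand: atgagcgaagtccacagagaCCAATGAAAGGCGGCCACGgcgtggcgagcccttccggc
Herpud1, chr8:94386357-94386407, plus strand: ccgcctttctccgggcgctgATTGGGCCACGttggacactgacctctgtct

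Counted from the gene start, the Hspa5 match ran from -65 to -47, that of Pdia6 from -98 to -80 and that of Herpud1 from -52 to -42. The Calr match ran from -162 to -144, and those of Hsp90b1 from -212 to -194 and from -107 to -89. GENCODE M21 starts Hspa5 upstream of the RefSeq start, so that match lies within an annotated exon of the gene there and is shown with few flanking bases. The letters searched did not occur in the windows of Pdia4, Sdf2l1, Atf4, Ddit3 and Xbp1. The heat shock element, which is GAA, TTC and GAA with any 2 bases between neighbours, found in 0.466% of all windows, occurred in none of the 10. The same search found 0 among the 10 cytosolic heat shock genes with a window, so its absence does not set the ER genes apart. A match is a description of the sequence, not evidence of binding.

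The 10 genes had close levels in Mef2dα2 Eko and WT quadriceps, and none passed the test for a difference. In edgeR's quasi-likelihood test, with p adjusted by the Benjamini-Hochberg method over the 16120 genes tested, 0 of 10 passed an adjusted p of 0.05, where 0.416% of all genes tested did. At an unadjusted p under 0.05 the count was also 0 of 10, against 11.6% of all genes. DESeq2, which called 2.39% of the genes it tested, called 0 of 10, as did the likelihood ratio test of edgeR and limma-voom. The log2 fold change of Mef2dα2 Eko against WT lay between -0.13 and 0.11, with 6 values below 0 and 4 above, and its median was -0.03 where that of all genes was -0.0051. Each fold change has a 95% interval, and for 9 of the 10 genes this lay wholly within 1.5-fold in either direction, against 57.7% of all genes tested. The exception was Sdf2l1, the gene with the fewest reads. The median standard error was 0.0747 for the 10 genes and 0.135 for all genes tested. Those were not matched to the 10 in level, so the shares do not show unusual stability. The genotypes did not overlap for 4 of the 10 genes, where 43.8% of all genes tested did not. In 2 of these 4, Hspa5 and Xbp1, both Mef2dα2 Eko mice were above WT (20.8% of all genes), and in the other 2, Pdia4 and Sdf2l1, both were below (23.0%).

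**Figure D1:**
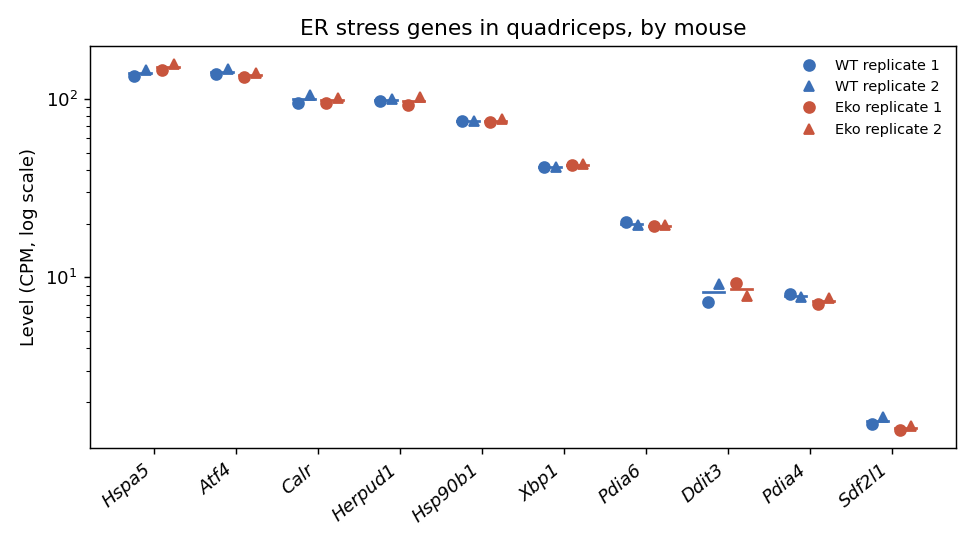
Level of each gene in each mouse, in CPM (a count over the TMM-scaled library size) on a log axis, with blue points for WT and red points for Mef2dα2 Eko mice and a bar at each mean (n = 2). The genes span from about 1.4 CPM for Sdf2l1 to over 150 CPM for Hspa5, and for every gene the 4 mice lie within 1.27-fold of each other.

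Hspa5 encodes BiP, the HSP70 of the ER lumen, which holds unfolded chains and keeps the sensors inactive until such chains draw it away. Its level in CPM, the count scaled to an effective library size from TMM, was 133.8 and 144.2 in WT mice, against 144.7 and 156.1 in Mef2dα2 Eko mice. Both Mef2dα2 Eko mice thus lay above both WT mice, the lowest of them by less than 1 CPM. The log2 fold change was 0.11 ± 0.07 (SE, n = 2 per genotype), with a 95% interval from -0.06 to 0.29 and an adjusted p of 0.611 by edgeR. The upper bound corresponds to 1.22-fold. This was the largest log2 fold change above 0 among the 10 genes.

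Hsp90b1 encodes GRP94, the HSP90 of the ER, which folds integrins, Toll-like receptors and insulin-like growth factors. It stood at 74.997 and 75.4 CPM in WT mice and at 73.7 and 77.1 CPM in Mef2dα2 Eko mice, so the Mef2dα2 Eko mice lay on either side of the WT pair. Its log2 fold change was 0.0037 with a 95% interval from -0.15 to 0.16, and the adjusted p by edgeR was 0.991. Calr encodes calreticulin, a chaperone of glycoproteins that also binds calcium. It stood at 95.2 and 105.0 CPM in WT mice and at 94.3 and 101.6 CPM in Mef2dα2 Eko mice. The genotypes overlapped, and the log2 fold change was -0.03 with an interval from -0.22 to 0.16 (edgeR, adjusted p = 0.912).

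Pdia4 and Pdia6 encode protein disulphide isomerases, which form and rearrange disulphide bonds in the ER. Pdia4 stood at 8.05 and 7.73 CPM in WT mice and at 7.05 and 7.62 CPM in Mef2dα2 Eko mice. Both Mef2dα2 Eko values lay below both WT values, with a log2 fold change of -0.11 ± 0.10 (SE, n = 2 per genotype), an interval from -0.35 to 0.14 and an adjusted p by edgeR of 0.742. Pdia6 stood at 20.4 and 19.6 CPM in WT mice and at 19.4 and 19.6 CPM in Mef2dα2 Eko mice. The genotypes overlapped, and its log2 fold change was -0.03 with an interval from -0.21 to 0.14 (edgeR, adjusted p = 0.893).

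Sdf2l1 encodes a luminal partner of the BiP co-chaperone DNAJB11. It had 114 and 133 counts in WT mice and 121 and 106 counts in Mef2dα2 Eko mice, which correspond to 1.502, 1.64, 1.40 and 1.48 CPM in that order. Both Mef2dα2 Eko values lay below both WT values in CPM. With so few reads the log2 fold change of -0.13 had an SE of 0.20 and an interval from -0.60 to 0.35, so a fall to 0.659 of the WT level could not be told from no change (edgeR, adjusted p = 0.855).

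Among the transcription factors of the response, Atf4 and Xbp1 showed levels as close, and Ddit3 varied more between mice. Atf4 stood at 137.3 and 146.1 CPM in WT mice and at 131.6 and 138.9 CPM in Mef2dα2 Eko mice, and the genotypes overlapped. Its log2 fold change was -0.07 with an interval from -0.23 to 0.10 (edgeR, adjusted p = 0.760). ATF4 is controlled mainly in translation, which these counts do not measure.

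Ddit3, its target, encodes CHOP, the factor linked to cell death in prolonged ER stress. It stood at 7.31 and 9.19 CPM in WT mice and at 9.28 and 7.86 CPM in Mef2dα2 Eko mice. The spread between the 2 mice of a genotype was thus larger than the distance between the genotype means, and the log2 fold change was 0.06 ± 0.14 (SE, n = 2 per genotype) with an interval from -0.29 to 0.40 (edgeR, adjusted p = 0.918). Among the 10 genes Ddit3 had the widest ratio of highest to lowest mouse, at 1.27.

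Xbp1 stood at 41.3 and 41.7 CPM in WT mice and at 42.5 and 42.9 CPM in Mef2dα2 Eko mice. Both Mef2dα2 Eko mice lay above both WT mice, by a log2 fold change of 0.04 with an interval from -0.11 to 0.20 (edgeR, adjusted p = 0.859). Its 4 mice were the closest of any of the 10 genes, within 1.04-fold. Gene counts sum the spliced and unspliced forms of Xbp1 mRNA, so the splicing by IRE1 was not measured.

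Herpud1 encodes an ER membrane protein of the machinery that returns misfolded proteins to the cytosol for degradation (ERAD). It stood at 97.5 and 100.0 CPM in WT mice and at 92.1 and 102.1 CPM in Mef2dα2 Eko mice. The WT pair lay between the Mef2dα2 Eko mice, and the log2 fold change was -0.02 with an interval from -0.20 to 0.15 (edgeR, adjusted p = 0.931).

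Mice differed little in these genes whatever their genotype. The ratio of the highest to the lowest of the 4 mice ran from 1.04 to 1.27 over the 10 genes, with a median of 1.11. Among the 11333 genes with a mean of at least 1.51 CPM, that of Sdf2l1 and the least of the 10, the median ratio was 1.19 and the quartiles were 1.12 and 1.31. Beyond that floor these genes were not matched to the 10 in level. The summed level of the 10 genes was 617 and 651 CPM in WT mice and 616 and 655 CPM in Mef2dα2 Eko mice.

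To order the genes by level, CPM was divided by the exon length of the gene in kilobases. In WT mice Atf4 was highest at 60.1 ± 2.66 CPM per kilobase (SD, n = 2), ahead of Herpud1 at 42.3 ± 0.752. Calr at 34.8 ± 2.41 and Hspa5 at 32.9 ± 1.74 followed and did not differ beyond their spread. Hsp90b1 at 18.6, Xbp1 at 12.8 and Pdia6 at 5.34 CPM per kilobase came next. Ddit3 at 4.82 ± 0.773 overlapped Pdia6 in its spread, and Pdia4 at 3.29 and Sdf2l1 at 1.42 were lowest. The 5 genes with an ERSE or ERSE-II therefore ran from 5.34 to 42.3 CPM per kilobase, and those without from 1.42 to 60.1. In Mef2dα2 Eko mice Hspa5, at 35.6 ± 1.91, stood above Calr, at 34.0 ± 1.79, again within their spread, and the other genes kept their places.

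Some of the counts may include reads of neighbouring genes. On GRCm38, in GENCODE M21, Ddit3 (chr10:127290774-127296288) overlaps Mars and Gm4189 on the other strand, and Pdia6 (chr12:17266545-17284770) overlaps Atp6v1c2. Hsp90b1 (chr10:86690209-86705509) overlaps 1810014B01Rik and Herpud1 (chr8:94386438-94395377) overlaps Gm15890, again on the other strand. The kit marks strand, but whether strand was used in counting was not given in the sources used here. The other 6 genes had no annotated gene on the other strand. On the same strand, Hsp90b1 overlaps Gm15344 and Gm25745, Pdia4 (chr6:47796141-47813430) overlaps Mir704, and a second gene model carries the symbol Ddit3, and counting by strand would not separate these.

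The wider pathway was read from lists of genes for each arm of the response. In all, 60 further genes were tested in 4 lists, and 0 passed an adjusted p of 0.05 by edgeR, where 0.416% of all genes did. An unadjusted p under 0.05 was found for 6 of the 60, near the share of all genes, 11.6%. DESeq2, the likelihood ratio test and limma-voom also called 0 of these 60.

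The sensors and the Golgi proteases that cut ATF6 were all slightly above WT in their fold change. All 6 genes had a log2 fold change above 0, where 7858 of all 16120 genes tested did. Their median was 0.14, with a lowest adjusted p of 0.492 by edgeR and none at an unadjusted p under 0.05. Ern1, which encodes IRE1, stood at 9.63 and 9.14 CPM in WT mice and at 10.6 and 10.8 CPM in Mef2dα2 Eko mice, giving a log2 fold change of 0.19 with an interval from -0.03 to 0.40. Atf6 stood at 38.7 and 36.1 CPM in WT mice and at 40.5 and 41.4 CPM in Mef2dα2 Eko mice, giving a log2 fold change of 0.13. The proteases Mbtps1 and Mbtps2 had log2 fold changes of 0.11 and 0.15. For these 4 of the 6 genes both Mef2dα2 Eko mice lay above both WT mice, a pattern that 20.8% of all genes showed in this direction. Ern1 and Mbtps2 were named by a rule that required it.

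Of 18 other ER chaperones and folding enzymes, 11 had log2 fold changes above 0 and 7 below, with a median of 0.03. Dnajb9, a BiP co-chaperone that also restrains IRE1, had the lowest adjusted p of the list, 0.247 by edgeR. It stood at 39.5 and 37.5 CPM in WT mice and at 45.1 and 47.9 CPM in Mef2dα2 Eko mice, giving a log2 fold change of 0.27 ± 0.07 (SE, n = 2 per genotype). Uggt1, which marks unfinished glycoproteins for another round of folding, had a log2 fold change of 0.22 with an adjusted p of 0.405. The BiP co-chaperone Dnajb11 and the HSP110 of the ER, Hyou1, had log2 fold changes of -0.12 and -0.11. The abundant folding genes P4hb and Canx had values of 0.10 and 0.0082.

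Of 15 ERAD genes tested, 7 had log2 fold changes above 0 and 8 below, with a median of -0.0016. Derl3, the remaining gene of the list, had too few counts to be tested. Selenos, a membrane adaptor of the retrotranslocation complex, stood at 7.09 and 8.05 CPM in WT mice and at 9.71 and 9.87 CPM in Mef2dα2 Eko mice. Its log2 fold change of 0.37 ± 0.11 (SE, n = 2 per genotype) had an adjusted p of 0.276. Ube2g2, an E2 ubiquitin-conjugating enzyme, lay the other way, at 66.9 and 63.2 CPM in WT mice and at 54.4 and 56.0 CPM in Mef2dα2 Eko mice, with a log2 fold change of -0.24 (adjusted p = 0.280). Derl1 had a log2 fold change of 0.15 and Edem1 one of -0.09, and the abundant Vcp one of 0.09.

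Of 21 targets of ATF4 and genes of the integrated stress response tested, 8 had log2 fold changes above 0 and 13 below, with a median of -0.04. Slc7a11 had too few counts. Nupr1, a stress-induced transcriptional regulator, stood at 3.32 and 3.08 CPM in WT mice and at 2.49 and 2.45 CPM in Mef2dα2 Eko mice, with a log2 fold change of -0.37 (adjusted p = 0.413). Mthfd2, a mitochondrial enzyme of folate metabolism, had a log2 fold change of -0.34 with an adjusted p of 0.477. Sesn2, which restrains mTORC1, stood higher in both Mef2dα2 Eko mice, with a log2 fold change of 0.31 (adjusted p = 0.502). The abundant Cebpg and Eif2ak1, which encodes the kinase HRI, had values of 0.04 and 0.02.

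**Figure D2:**
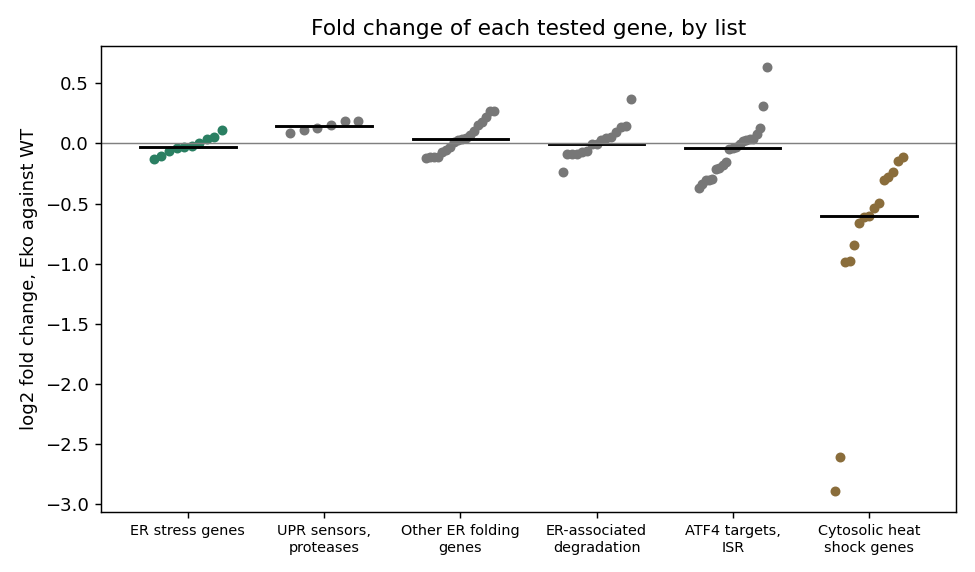
Log2 fold change of Mef2dα2 Eko against WT for every tested gene of the ER lists and of the cytosolic heat shock list, ordered by value within a list, with a black bar at each median (n = 2 mice per genotype). The 10 ER stress genes lie between -0.13 and 0.11, and the heat shock genes are the list with every value below 0.

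The cytosolic heat shock genes of the same libraries were lower in Mef2dα2 Eko mice in part, and the difference between the lists as wholes was not tested. Of 15 genes, all tested, 3 fell at an adjusted p of 0.05 by edgeR and 0 rose, where 0.31% of all genes tested fell. All 15 had log2 fold changes below 0, where 8262 of all 16120 genes tested did, and their median was -0.61. An unadjusted p under 0.05 was found for 12, where 6.41% of all genes were lower at that threshold. Hspa4l and Hsph1, both of the HSP110 family, fell with log2 fold changes of -0.84 (adjusted p = 0.0463) and -0.61 (adjusted p = 0.0424). Bag3, the co-chaperone that directs clients of HSP70 to autophagy, fell with a log2 fold change of -0.49 (adjusted p = 0.0480), but did not pass with RLE normalization. With a filter of 1 CPM, Hspa4l and Bag3 no longer passed (adjusted p = 0.0556 for each by edgeR), and Bag3 was also lost without WT replicate 1 or Mef2dα2 Eko replicate 1 (0.0552 each).

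The stress-inducible HSP70 genes Hspa1b and Hspa1a had the largest log2 fold changes of the list, -2.89 and -2.61, and did not pass, with adjusted p of 0.204 and 0.178 by edgeR's quasi-likelihood test. Both passed in the likelihood ratio test of edgeR (adjusted p = 0.0019 and 0.00057) and with no filter on low counts. Without WT replicate 2 their log2 fold changes came to -1.47 (adjusted p = 0.081) and -1.36 (adjusted p = 0.025), and with any other single mouse left out both passed, with adjusted p from 0.0015 to 0.018. Hspa1b stood at 18.4 and 78.6 CPM in WT mice and at 3.98 and 9.26 CPM in Mef2dα2 Eko mice. The WT mice thus differed widely from each other, and the highest mouse exceeded the lowest 19.8-fold, where no ER stress gene went beyond 1.27-fold. These genes are near-identical copies, so their division by RSEM is uncertain.

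**Figure D3:**
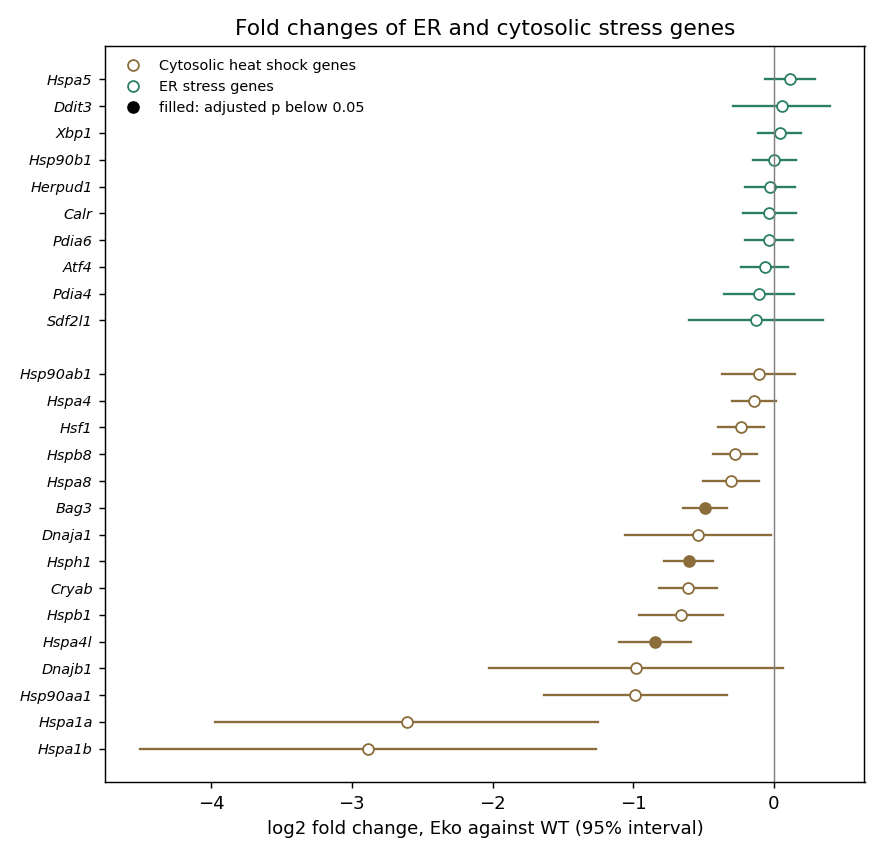
Log2 fold change of Mef2dα2 Eko against WT (points) with its 95% interval (lines) for the 10 ER stress genes and the 15 cytosolic heat shock genes, from edgeR (n = 2 mice per genotype). Filled points mark an adjusted p below 0.05, which Bag3, Hsph1 and Hspa4l reached, and the interval of each ER stress gene spans 0.

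Related chaperones of the ER and the cytosol can be set against each other within a mouse, which cancels the scaling of the library. The pairs were chosen after their values were seen. The ratio of Hspa5 to Hspa8, the constitutive HSP70 of the cytosol, was 0.118 and 0.123 in WT mice and 0.165 and 0.158 in Mef2dα2 Eko mice. Both Mef2dα2 Eko mice lay above both WT mice, by 1.34-fold on average. Hspa8 itself stood at 1132 and 1175 CPM in WT mice and at 878 and 991 CPM in Mef2dα2 Eko mice, with a log2 fold change of -0.30 (adjusted p = 0.262 by edgeR). The ratio of Hyou1 to its cytosolic relative Hsph1 was 0.140 and 0.138 in WT mice and 0.206 and 0.186 in Mef2dα2 Eko mice, a 1.41-fold difference.

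For GRP94 the outcome depended on the cytosolic partner. Hsp90b1 over the inducible Hsp90aa1 was 1.15 and 0.598 in WT mice and 1.69 and 1.45 in Mef2dα2 Eko mice, a 1.89-fold difference with no overlap. Hsp90aa1 itself stood at 65.5 and 126.0 CPM in WT mice and at 43.6 and 53.1 CPM in Mef2dα2 Eko mice, with a log2 fold change of -0.99 (adjusted p = 0.262 by edgeR). Hsp90b1 over the constitutive Hsp90ab1 was 0.0673 and 0.0572 in WT mice and 0.0702 and 0.0639 in Mef2dα2 Eko mice, which overlapped. The exact two-sided permutation test gave p = 0.333 for the first 3 pairs of genes and p = 0.667 for the last. With 2 mice against 2 it cannot go below 0.333, so no ratio could pass, and adjustment over the 4 pairs would not lower these values.

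**Figure D4:**
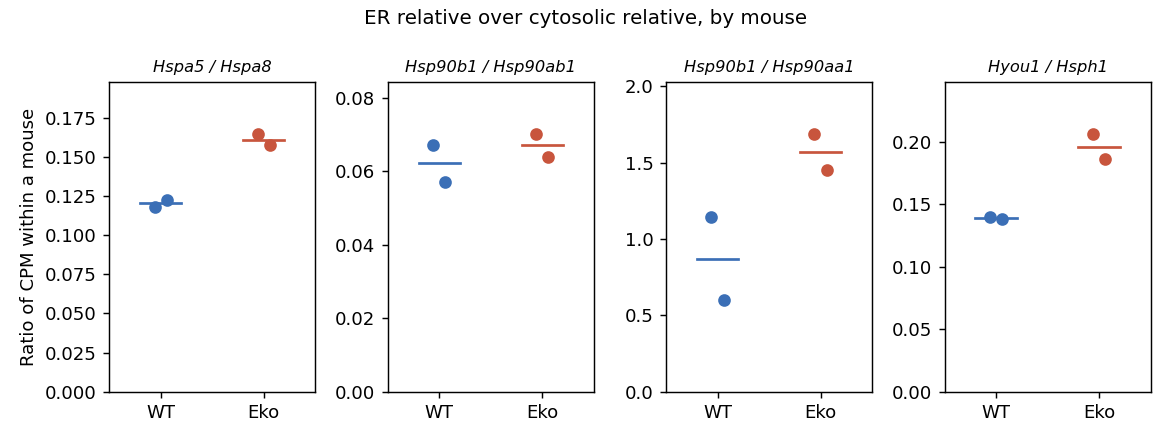
Ratio of the CPM of an ER chaperone to that of its cytosolic relative in each mouse (points), with a bar at each genotype mean (n = 2) and each axis starting at 0. The Mef2dα2 Eko mice lie above both WT mice for Hspa5 over Hspa8, Hsp90b1 over Hsp90aa1 and Hyou1 over Hsph1, and overlap them for Hsp90b1 over Hsp90ab1.

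The libraries held 72626757 to 85176059 counts, and 3 counts in a library correspond to 0.0348 to 0.0419 CPM, which covers counting error only. Mef2d as a whole gene did not separate the genotypes, with a log2 fold change of 0.02 (adjusted p = 0.960 by edgeR). Gene counts do not tell the α1 exon from the α2 exon. Markers of muscle fibres summed to 121071 to 124387 CPM in WT mice and 123137 to 130171 CPM in Mef2dα2 Eko mice, most of it from Myh4. Of these 5 markers, Mb lay lower in both Mef2dα2 Eko mice, with a log2 fold change of -0.50 (unadjusted p = 0.0020, adjusted p = 0.156 by edgeR), and Ttn had a log2 fold change of 0.22 (adjusted p = 0.466). The 3 adipocyte markers summed to 11.8 to 29.2 CPM in WT mice and 4.82 to 12.7 CPM in Mef2dα2 Eko mice, and the 3 macrophage markers to 7.94 to 10.1 and 4.68 to 6.86 CPM. All 6 had log2 fold changes below 0, none passed an adjusted p of 0.05, none was at 0 in any library, and their part in the levels of the ER genes was not tested. No marker of fibroblasts, endothelial cells, plasma cells, satellite cells or Schwann cells that was tested passed either. In bulk muscle, fewer cells of a type and less RNA per cell cannot be told apart.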

How the data were processed

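Quadriceps RNA of 2 WT and 2 Mef2dα2 Eko mice was sequenced after selection for polyA, and genotypes came from the sample labels. The authors aligned reads to mm10 (STAR 2.6.1a is named in the submitters' processing notes), estimated expected counts per gene with RSEM and the Ensembl annotation, and deposited them without normalization. All the deposited values were whole numbers, so rounding changed none. RSEM shares reads that match several genes among them, so counts of near-identical genes depend on its model.

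The main comparison used edgeR 4.0.16 in R 4.3.3 (quasi-likelihood test), after TMM normalization and edgeR's filter on low counts, which kept 16120 of 24621 genes with any count. Benjamini-Hochberg adjustment covered all genes kept, at a threshold of 0.05. The prior count was 0.125, and standard errors and 95% intervals come from the F statistic. Alternatives were DESeq2 1.42.0, limma-voom (limma 3.58.1), the likelihood ratio test, RLE and upper-quartile normalization, other filters, a replicate block, and each mouse left out in turn. The fit was tested on simulated data. 

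The genes and lists were chosen with earlier results of these data known. All 10 genes are described. From each other list, the text names genes that passed the threshold, the 2 with the largest rise and the 2 with the largest fall among genes whose genotypes did not overlap, and the 2 with the highest mean CPM. Genes named otherwise are marked, and 1 gene that the rule picks is not reported here.

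Exon lengths and overlaps came from GENCODE M21 and the 250-base windows before gene starts from RefSeq, both on GRCm38. Of the 15 cytosolic heat shock genes, 10 had a window. Protein sequences were not used here.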

Additional observations from a re-analysis of the deposited data

How the results depend on the processing

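The number of the 10 ER stress genes past the threshold stayed at 0 in every alternative, DESeq2 and each left-out mouse included, and their median log2 fold change ran from -0.07 to 0.02 when a mouse was left out. Of all genes, DESeq2 called 318, the likelihood ratio test 312, no filter on low counts 799, and a floor of 1 CPM in at least 2 libraries 23, against 67, and leaving out a mouse, where the lone mouse of a genotype is assumed to vary like the other pair, gave 99 to 299. The cytosolic heat shock genes called numbered 6 with DESeq2, 8 with the likelihood ratio test, 12 with no filter and 1 with the filter at 1 CPM, against 3, and 6 to 9 when a mouse was left out. Without the filter, 4 of the other ER and integrated stress genes, of which 62 were then tested, were called (Atf3, Atf5, Cebpb and Chac1, named after their values were seen), and leaving out a mouse gave 0 to 1 (Atf3 without Mef2dα2 Eko replicate 1, Cebpb without Mef2dα2 Eko replicate 2). Among the 10 ER stress genes and the genes named by the rule, fold changes that crossed 0 when a mouse was left out were those of Hsp90b1 (-0.029 to 0.050), Calr (-0.10 to 0.056), Ddit3 (-0.10 to 0.24), Herpud1 (-0.10 to 0.062), Canx (-0.063 to 0.090), Eif2ak1 (-0.026 to 0.076), Cebpg (-0.034 to 0.12) and Hsp90ab1 (-0.22 to 0.031). For other genes named, such as Mef2d, Atp2a2 and Hsp90aa1, this crossing was not examined. Hspa4l was lost with the filter at 1 CPM (adjusted p = 0.0556), and Bag3 with that filter (0.0556), with RLE factors (0.0503), and without WT replicate 1 or Mef2dα2 Eko replicate 1 (0.0552 each); the causes were not tested. Mice share replicate numbers across genotypes, but same-numbered mice deviated together only weakly (correlation 0.0659 over genes, 2 pairs), so the numbers were not taken as a pairing. With the replicate number as a block, 186 genes, 8 heat shock genes and 0 of the 10 ER stress genes were called, and Hspa1b and Hspa1a passed (adjusted p = 0.0041 and 0.0076). Of the 10 ER stress genes, Sdf2l1 had the fewest counts and the largest standard error.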

Other observations

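Genes of the calcium store of the sarcoplasmic and endoplasmic reticulum were also examined. Of 10 genes tested, 0 passed an adjusted p of 0.05 by edgeR and 1 had an unadjusted p under 0.05, where 0.416% and 11.6% of all genes did, and the median log2 fold change was 0.05. Itpr1, an inositol trisphosphate receptor, stood at 37.2 and 43.3 CPM in WT mice and at 34.4 and 33.6 CPM in Mef2dα2 Eko mice, giving a log2 fold change of -0.24 with an adjusted p of 0.368. Casq1, the calcium-binding protein of the sarcoplasmic reticulum lumen in fast fibres, had a log2 fold change of 0.13 with both Mef2dα2 Eko mice above both WT mice. The calcium pump Atp2a1 and the release channel Ryr1 had log2 fold changes of 0.11 and 0.09. The lowest value of the list, named after it was seen, was that of Atp2a2, the calcium pump of slow fibres, at 151.6 and 291.3 CPM in WT mice and at 167.8 and 126.5 CPM in Mef2dα2 Eko mice. The genotypes overlapped, and its log2 fold change was -0.59 ± 0.28 (SE, n = 2 per genotype; adjusted p = 0.487 by edgeR).

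An ERSE also occurred before 4 of the 15 other ER folding genes with a RefSeq window (Canx, Ero1b, Dnajc3 and Creld2) and 2 of the 12 ERAD genes with a window (Derl3 and Syvn1), and before none of the 10 heat shock genes with a window. Named after their sequences were seen, these genes carry no test.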
